A study of Mus musculus with 10 samples.

Results

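The 5 wild-type (WT) leukaemias of the series were compared by oncogene: 2 cMyc-Bcl2 libraries against 3 MLL-AF9 libraries, of 10 libraries in all. They were chosen by their labels alone, as the libraries that carry no Dnmt3b knockin. The cMyc-Bcl2 group is labelled as leukaemic spleen cells, and the MLL-AF9 group as c-kit+ leukaemic spleen cells. Oncogene and c-kit sort therefore go together, and differences that come with one cannot be told apart from differences that come with the other. Read ends also lay at other distances from the cut site in the libraries of each model, so the sequencing of the models cannot be told apart from them either. The other 5 libraries, 2 of cMyc-Bcl2 and 3 of MLL-AF9, come from mice with a tetracycline-inducible Dnmt3b knockin. Their levels in windows and promoters served as a separate set of the same models. Their reads also entered the CpG density counts, the choice of read-end positions left out and the placing of promoters. The labels used here give no strain, age, transplantation history or number of animals. Whether each library is its own mouse is not stated, so tests measure only the spread between these libraries.

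MLL-AF9 is a fusion of a histone methyltransferase with a partner of the elongation machinery, and it drives leukaemias in which genes of blood stem and progenitor cells stay active. cMyc is a transcription factor of cell growth, and Bcl2 blocks apoptosis, so that together they transform blood cells. c-kit is the receptor of stem cell factor and marks progenitors. In mammalian DNA most CpGs are methylated, while CpG-dense stretches at gene starts are mostly free of methylation. Methylation of CpG-poor regulatory DNA differs between blood lineages, and methylation of dense gene starts is frequent in cancer. Reduced representation bisulfite sequencing cuts DNA at CCGG and reads the CpG-rich fragments after bisulfite treatment, which turns unmethylated cytosines into a base read as thymine. The level of a CpG is the percentage of its reads that are methylated.

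The 5 WT libraries held 14446933 to 46762220 methylation calls and 413805 to 790151 CpGs with 10 or more reads after strands were joined. Mitochondrial CpGs, a guide to incomplete conversion, read as methylated in 0.910 to 2.59% of calls. Relative read depth differed between the WT libraries by 1.44 times on chromosome 2 and by 1.35 times on chromosome 15, and by at most 1.09 times on the other autosomes. Levels were summed over the CpGs of 1-kb windows with at least 3 CpGs that had 10 or more reads in all 5 libraries. In all, 267070 autosomal CpGs had that depth, and those in windows with 3 or more of them gave 27043 windows. The median was 109.0 to 373.0 reads per window and library. Intervals from reads would cover counting error only, since reads without molecular identifiers are not independent molecules. No lineage could be checked from expression, and the promoter of only 1 gene of the B cell list and 2 of the myeloid list were measured.

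Of the promoters set apart by 25 points or more, 2 for each direction are shown first, as the RefSeq sequences of GRCm38.p6 around each gene start, most of it upstream. Capitals mark the CpGs that were measured with 10 or more reads in all 5 WT libraries, and the other CpGs did not reach that depth or were left out as read ends. Hic1 and Arhgef18 were higher in MLL-AF9, and Marveld2 and Chrnb4 were higher in cMyc-Bcl2, where 3300002P13Rik and Tacc2 were also set apart and are given below by their levels.
Hic1: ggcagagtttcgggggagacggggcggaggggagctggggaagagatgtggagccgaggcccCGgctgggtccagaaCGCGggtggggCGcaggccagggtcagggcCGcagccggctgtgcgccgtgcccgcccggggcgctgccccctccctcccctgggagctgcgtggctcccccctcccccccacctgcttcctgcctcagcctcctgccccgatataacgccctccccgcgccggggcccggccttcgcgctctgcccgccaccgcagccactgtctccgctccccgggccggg
Arhgef18: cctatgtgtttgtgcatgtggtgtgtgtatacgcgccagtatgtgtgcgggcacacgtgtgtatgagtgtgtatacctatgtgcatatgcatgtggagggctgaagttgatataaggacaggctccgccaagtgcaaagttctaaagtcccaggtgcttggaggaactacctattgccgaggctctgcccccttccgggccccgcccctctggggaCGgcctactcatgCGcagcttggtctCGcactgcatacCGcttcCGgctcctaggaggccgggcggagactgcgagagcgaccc
Marveld2: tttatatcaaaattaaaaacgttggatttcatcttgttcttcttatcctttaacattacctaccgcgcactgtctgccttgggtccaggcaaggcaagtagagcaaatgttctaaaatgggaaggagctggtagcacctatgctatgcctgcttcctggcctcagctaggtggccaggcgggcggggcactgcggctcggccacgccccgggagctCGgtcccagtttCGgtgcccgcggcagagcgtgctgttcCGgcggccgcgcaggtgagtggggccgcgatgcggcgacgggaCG
Chrnb4: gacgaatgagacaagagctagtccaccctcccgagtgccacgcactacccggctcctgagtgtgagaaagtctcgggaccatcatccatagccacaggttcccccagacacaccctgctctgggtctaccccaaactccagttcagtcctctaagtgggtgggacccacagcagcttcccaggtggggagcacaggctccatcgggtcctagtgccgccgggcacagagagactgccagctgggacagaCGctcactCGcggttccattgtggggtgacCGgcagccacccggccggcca
The Hic1 sequence holds 29 CpGs, of which 5 were measured, and the Arhgef18 sequence holds 17, of which 5 were measured. For Marveld2 these numbers were 24 and 4, and for Chrnb4 14 and 3. The median promoter of the RefSeq table holds 7 CpGs, but only promoters with 6 or more covered CpGs could be placed. The higher CpG numbers here therefore follow in part from the placement. Each of them holds CCGG, the cut site of the assay, as do 52.8% of the 32851 promoters in the table. The assay reads fragments cut at this site, so its presence follows in part from the method.

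Mean methylation did not separate the models. Over all covered autosomal CpGs it was 23.5% ± 0.384 (SD, n = 2) in cMyc-Bcl2 and 23.1% ± 0.558 (SD, n = 3) in MLL-AF9. The cMyc-Bcl2 libraries stood at 23.8 and 23.2%, and the MLL-AF9 libraries at 23.0, 23.7 and 22.6%, so the groups overlapped. The difference of 0.402 points gave an exact two-sided permutation p of 0.400, where the 10 arrangements of these libraries allow no p below 0.1.

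Levels differed far more between classes of CpG density than between the models. Density is the number of CpGs in a 1-kb window that any library of the series lists. CpGs that the assay did not reach are not counted in it. CpGs in windows with under 20 listed CpGs per kb were at 68.7% ± 0.472 in cMyc-Bcl2 (SD, n = 2) and 67.6% ± 0.815 in MLL-AF9 (SD, n = 3). In windows with 20 to 59 listed CpGs the means were 12% ± 0.693 (SD, n = 2) and 11.7% ± 0.685 (SD, n = 3). In CpG-dense windows, with 60 or more, they were 3.21% ± 0.688 (SD, n = 2) and 3.12% ± 0.297 (SD, n = 3). The differences of 1.08, 0.230 and 0.0951 points gave exact permutation p-values of 0.300, 0.800 and 0.900, each 0.900 after Benjamini-Hochberg adjustment over the 3 classes.

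**Figure D1:**
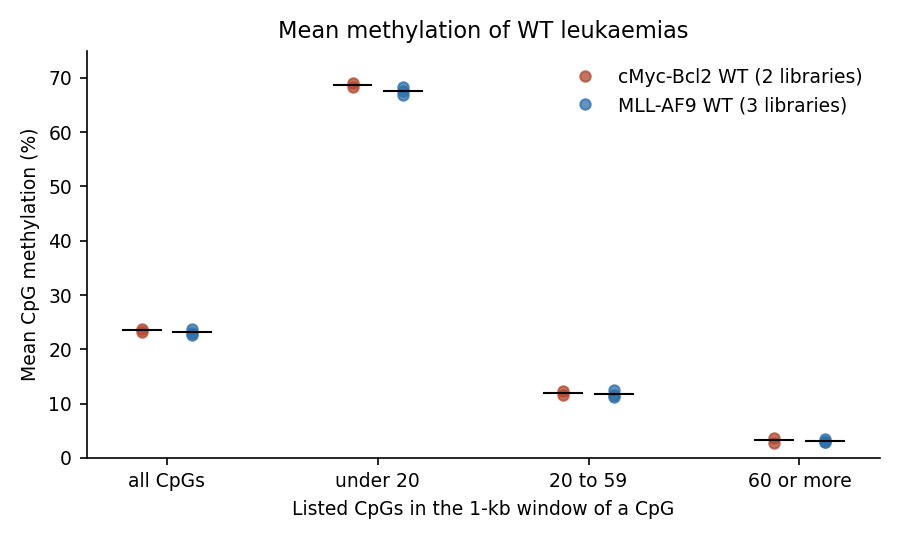
Mean CpG methylation in percent (vertical axis) of each WT library, over all CpGs and in 3 classes of CpG density (horizontal axis); points are libraries and black lines group means. The groups sit at 23.5 and 23.1% over all CpGs, and in every class the points of the models lie close together.

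Against this common mean, a small set of windows stood far apart. In 146 windows both cMyc-Bcl2 libraries lay at least 25 points above all 3 MLL-AF9 libraries, which is 0.540% of the windows tested. In 69 windows, 0.255%, all MLL-AF9 libraries lay at least 25 points above both cMyc-Bcl2 libraries. Of the windows set apart, 67.9% were thus higher in cMyc-Bcl2. These windows were chosen by their difference, so it is described and not tested. For scale, the 2 cMyc-Bcl2 libraries themselves differed by 25 points or more in 944 windows, 3.49%, and the 3 MLL-AF9 libraries ranged over 25 points or more in 1917, 7.09%.

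The typical window set apart was mostly methylated in one model and mostly unmethylated in the other. Windows higher in cMyc-Bcl2 had median levels of 78.9 and 77.0% in the cMyc-Bcl2 libraries against 20, 19.1 and 17.2% in the MLL-AF9 libraries. Windows higher in MLL-AF9 had medians of 27.7 and 27.1% in cMyc-Bcl2 against 83.1, 84.7 and 80% in MLL-AF9. A full contrast, with 1 model at 80% or more and the other at 20% or less, was seen in 24 windows, of which cMyc-Bcl2 was the methylated model in 19 and MLL-AF9 in 5.

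Windows set apart mostly had few listed CpGs and lay away from placed gene starts. Gene starts that could not be placed do not enter the distances. Of the 146 windows higher in cMyc-Bcl2, 112 had under 20 listed CpGs, which is 76.7% against 36.7% of all windows tested. Of the 69 higher in MLL-AF9, 47 did, or 68.1%. Their median density was 12 and 14.0 listed CpGs per kb, against 30 for all windows. They were also smaller and less deeply read than the rest. The median number of CpGs was 3 and 4 against 6, and the median of the lowest read number in any WT library was 58.5 and 62.0 against 98.0.

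CpG-dense windows went mostly the other way. Of 6315 dense windows tested, 7 were higher in MLL-AF9 and 1 was higher in cMyc-Bcl2. Dense windows made up 10.1% of the windows higher in MLL-AF9 and 0.685% of those higher in cMyc-Bcl2, against 23.4% of all windows. The 7 were 2 windows of Hic1 and 1 each inside Kif7, at -415 bp from the start of Gm32267, on chromosome 7 at 88020657, on chromosome 5 at 111849011 and on chromosome 13 at 55311809; the 1 was at the start of Marveld2. These were named after their values were seen.

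Near CpG-dense DNA few windows of either direction were set apart. Within 1 to 2 kb of a dense window, 0.0986% of windows were higher in cMyc-Bcl2 and 0.131% were higher in MLL-AF9. At 3 to 10 kb the shares were 0.847 and 0.452%, and at 11 to 50 kb they were 0.950 and 0.334%. Beyond 50 kb they were 0.713 and 0.303%. Only 3 of the 146 windows and 4 of the 69 lay within 1000 bp of a placed gene start, where 31.7% of all windows lay. Starts were placed only with 6 or more covered CpGs, and 5371 of 5565 placed promoters measured were under 20% in both models. Distance to a placed start was therefore not separated from CpG density.

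**Figure D2:**
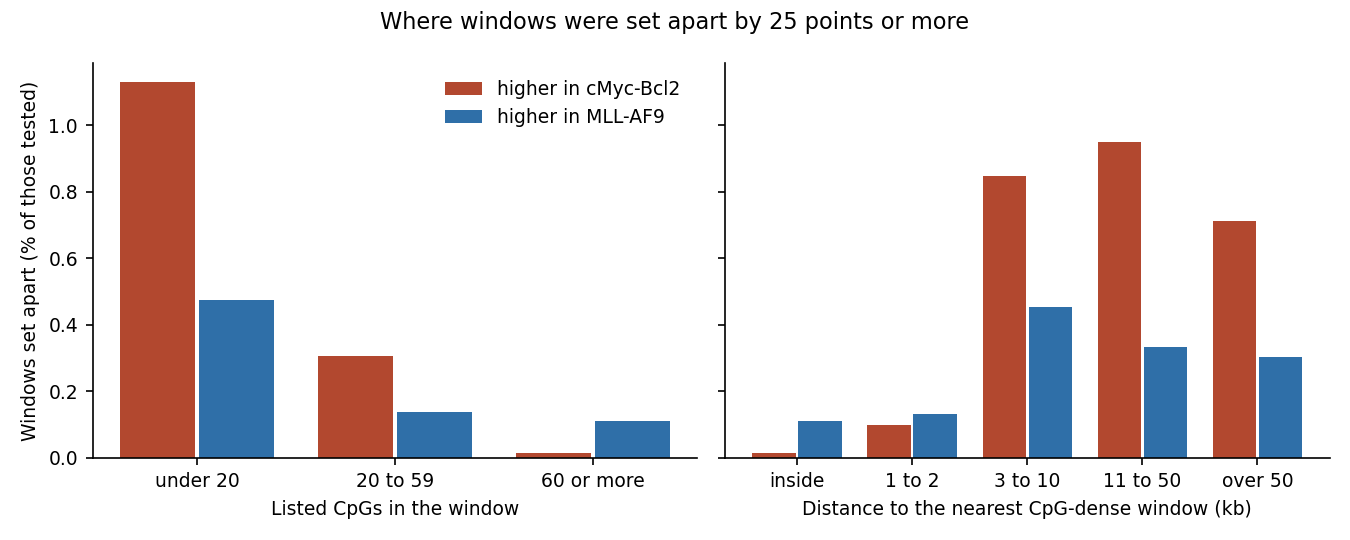
Percentage of the windows tested that were set apart by 25 points or more (vertical axis), by listed CpGs in the window (left) and by distance in kb to the nearest window with 60 or more listed CpGs (right). Windows higher in cMyc-Bcl2 take 1.13% of the class with under 20 listed CpGs and 0.0158% of the dense class. Windows higher in MLL-AF9 take 0.474 and 0.111%.

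Few windows of 1 direction lay near another of the same direction. How many had a tested neighbour at all was not counted. Within 50 kb of each other lay 2 pairs of windows higher in cMyc-Bcl2, in Rspo1 and in Gse1, and 7 pairs higher in MLL-AF9. The 7 included Hic1, Arhgef18, Pde2a and Trak1, a pair upstream of Cbl, and a pair on chromosome 7 at 88020657. The Arhgef18 and Cbl pairs and the pair at 88020657 are adjoining 1-kb windows, so 1 stretch cut by the grid can count as 2 windows. On chromosome 2, 9 windows were higher in cMyc-Bcl2 and 1 in MLL-AF9, and on chromosome 15 the numbers were 11 and 1. These are the chromosomes of unequal depth, and without them 126 and 67 windows remained. On chromosome 2 the cMyc-Bcl2 libraries were themselves the highest and the lowest in relative depth, at 1.22 and 0.847. On chromosome 15 cMyc-Bcl2 replicate 2 was the highest, at 1.24. Some chromosomes of more even depth were also one-sided, with 14 and 3 windows on chromosome 8 and 6 and 1 on chromosome 14. The numbers were equal on chromosomes 3 and 12. Chromosomes 11 and 16 were the other way round, with 6 and 9 windows and with 2 and 3.

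The single CpGs of these windows mostly differed in the direction of their sums. Of the 606 CpGs in windows higher in cMyc-Bcl2, 551 showed no overlap between the libraries of the models, as did 336 of the 366 CpGs in windows higher in MLL-AF9. In 107 and 45 windows every CpG was apart. The windows were chosen by the sums of these same CpGs, so this follows in large part from the choice. The share without overlap over all CpGs was not counted. The gap of 25 points held with any 1 CpG left out in 78 of the 146 windows and in 40 of the 69.

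The windows nearest the threshold show what it separates. Just inside it, a window of 4 CpGs at chr19:10892889-10892960 (mm9, as all positions here) read 55.9 and 69.5% in cMyc-Bcl2 against 30.1, 26.9 and 30.9% in MLL-AF9. Just outside it, 3 CpGs at chr14:59849676-59849698 read 100 and 87.1% against 62.2, 47.3 and 60.4%. In the other direction, the window at chr7:29622674-29622775 was just inside, at 64.3 and 61.4% against 97.7, 91.0 and 89.4%. The window at chr13:74754769-74754809 was just outside, at 2.75 and 13.9% against 62.5, 71.4 and 38.9%.

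The body of Hic1 held one of the largest gaps among windows higher in MLL-AF9, 60.5 points. Hic1 encodes a transcriptional repressor that is often methylated in tumours. Its window at chr11:74979527-74979992 (mm9) lies 1895 bp after the nearest of its placed starts. This window read 32.3 and 23.3% in the cMyc-Bcl2 libraries against 96.9, 96.4 and 92.8% in the MLL-AF9 libraries. All 16 of its CpGs were apart, with 322 to 1639 reads per library. The means were 27.8% ± 6.35 (SD, n = 2) and 95.4% ± 2.21 (SD, n = 3), and the quasi-binomial fit over all windows gave an adjusted p of 0.0344.

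A window at this placed start of Hic1 differed in the same direction and more unevenly. It lies at -22 bp from that start and 2081 bp inside the gene from another. The window at chr11:74981511-74981842, with 9 CpGs, read 12 and 3.25% in cMyc-Bcl2 against 75.6, 43.5 and 44.9% in MLL-AF9. Over the 5 CpGs of the sequence shown above the levels were 11.8 and 4.25% against 77.1, 44.3 and 50%. MLL-AF9 replicate 1 was the highest library at both, and the fit did not call the window (adjusted p = 0.188, quasi-binomial fit).

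The fit called 5 further windows. On chromosome 7 the window at chr7:88020657-88020994, with 14 CpGs, read 61.5 and 62.9% in cMyc-Bcl2 against 95.2, 95.9 and 96.7% in MLL-AF9 (adjusted p = 0.0299, quasi-binomial fit). Its neighbour at chr7:88021066-88021185 had a larger gap, of 62.9 points, but was not called (adjusted p = 0.0510, quasi-binomial fit). Higher in cMyc-Bcl2 was a window at chr3:36025027-36025376, at 96.2 and 97.4% against 2, 5 and 6.38%, the largest gap of all, 89.8 points. This window rested on 3 CpGs and on 47 to 156 reads per library. In the knockin libraries it read 89.5 and 95.9% in cMyc-Bcl2 against 10.8, 77.4 and 39.5% in MLL-AF9.

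The other 3 called windows were also higher in cMyc-Bcl2. The window at chr17:45654801-45654880 lies 11050 bp into Aars2, a mitochondrial alanyl-tRNA synthetase. It read 77.3 and 77.1% in cMyc-Bcl2 against 12.5, 8.25 and 11.4% in MLL-AF9 over 5 CpGs. A window on the same chromosome, chr17:45979405-45979419, read 96.5 and 95.2% against 4.44, 11.8 and 9.09%, and one on chromosome 18 read 90.5 and 94.1% against 7.14, 5.06 and 8.74%. Each of these had 3 CpGs. In all, the fit called 4 windows with cMyc-Bcl2 as the higher model (0.0148%) and 2 with MLL-AF9 (0.00740%), while 3268 of 27043 had an unadjusted p under 0.05. Every call was lost when any 1 library was left out.

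The remaining windows with the largest gaps are named by gene where the annotation placed them. Gene starts were placed on mm9 only where the CpG pattern of a RefSeq promoter could be found, so the nearest placed start need not be the nearest gene, and exons and introns were not assigned. Higher in MLL-AF9 were windows inside Drap1, a corepressor of transcription, inside Ubtf, a factor of ribosomal RNA transcription, and inside Pde2a, a cyclic nucleotide phosphodiesterase. The Drap1 window at chr19:5423580-5423642, 1369 bp after the start, read 19 and 23.9% in cMyc-Bcl2 against 83.1, 89.1 and 76.6% in MLL-AF9. The Ubtf window at chr11:102175281-102175325 read 46.4 and 36.3% against 93.1, 93.9 and 90.8%. The Pde2a window at chr7:108614075-108614149 read 11.8 and 7.49% against 89.0, 80.6 and 63.8%.

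The rest of this group lay between placed genes. A window of 9 CpGs at chr9:44064775-44065001, at -22758 bp from the start of Cbl, a ubiquitin ligase of receptor signalling, read 12.3 and 26.0% in cMyc-Bcl2 against 88.0, 93.1 and 85.4% in MLL-AF9. The windows at chr7:133893205-133893366 and chr16:91760909-91760988 had gaps of 55.2 and 48.7 points. Every CpG of these windows was apart, and in the knockin libraries each again stood without overlap in the same direction.

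Higher in cMyc-Bcl2, the named windows were mostly far from placed starts. Inside Git2, which regulates small GTPases, the window at chr5:115216836-115216884 read 93.7 and 94.4% against 34.8, 27.1 and 16.2%. Inside Ttc28, the window at chr5:111715179-111715672 read 78.9 and 94.9% against 13.9, 16.9 and 8.57%. The largest gaps of this group, 75.2 and 74.2 points, lay on chromosome 9 at chr9:123995109-123995187 and chr9:118598396-118598599. The first read 91.4 and 80.8% in cMyc-Bcl2 against 2.88, 5.56 and 1.5% in MLL-AF9. The windows at chr10:61749294-61749390, chr8:117097652-117097727 and chr6:3151487-3151555 had gaps of 61.7, 60.8 and 60.4 points. In the knockin libraries the models overlapped at the chr10 window, at 88.4 and 28.0% in cMyc-Bcl2 against 47.7, 69.6 and 48.5% in MLL-AF9. The other windows of this paragraph stood without overlap there in the same direction, with gaps of 8.46 to 73.3 points.

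Blood regulators appeared on both sides. The genes of this paragraph were picked from the fixed lists as those in or nearest to a window set apart. Irf8, a transcription factor of monocytes and dendritic cells, was higher in cMyc-Bcl2 at chr8:123263565-123263847, 3447 bp after its start. Its 8 CpGs read 98.1 and 91.5% in cMyc-Bcl2 against 44.9, 15.1 and 16.9% in MLL-AF9, and all 8 were apart. MLL-AF9 replicate 1 was the highest of its group here. In the knockin libraries the same window was high in both models, at 95.5 and 92.9% in cMyc-Bcl2 against 80.5, 86.8 and 80.7% in MLL-AF9.

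Gata2, a transcription factor of stem and progenitor cells, was higher in MLL-AF9. Its window at chr6:88150159-88150676, 1759 bp after 1 of its starts, read 57.7 and 44.4% in cMyc-Bcl2 against 86.4, 86.0 and 84.2% in MLL-AF9 over 8 CpGs. Both Gata2 promoters measured were at 5.88% or less in every WT library. A window at -35802 bp from the start of Myb, a progenitor transcription factor, read 58.0 and 63.2% in cMyc-Bcl2 against 20.7, 26.1 and 26.7% in MLL-AF9. That window had 3 CpGs. In the knockin libraries the models overlapped there, at 46.9 and 40.5% in cMyc-Bcl2 against 61.8, 30.1 and 33.8% in MLL-AF9. The Gata2 window again stood without overlap in the same direction in those libraries.

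Inside genes of the methylation machinery list, 2 windows were set apart, 1 in each direction. Inside any placed gene 42 and 28 of 9644 windows were, or 0.436 and 0.290%. The windows tested inside the genes of this list were not counted. Dnmt3a, a de novo DNA methyltransferase, held a window 21325 bp after a start, at chr12:3913006-3913133, that read 87.4 and 78.3% in cMyc-Bcl2 against 35.2, 22.6 and 26.7% in MLL-AF9. Kdm2b, a histone demethylase that binds unmethylated CpGs, held one 35425 bp inside the gene that read 55.4 and 50% against 89.2, 90.4 and 81.2%. The Kdm2b window rested on 3 CpGs, of which 2 were apart, and on 37 reads in the lowest WT library. In the knockin libraries the models overlapped there. All 11 promoters measured for this list were under 20% in both models and none was set apart, where over all 5565 promoters 5 and 2 were. Dnmt1, the maintenance methyltransferase, Suz12, a Polycomb subunit, Kdm2b and Mbd4, a DNA glycosylase, had the most reads, and all were at 1.83% or less in every WT library.

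**Figure D3:**
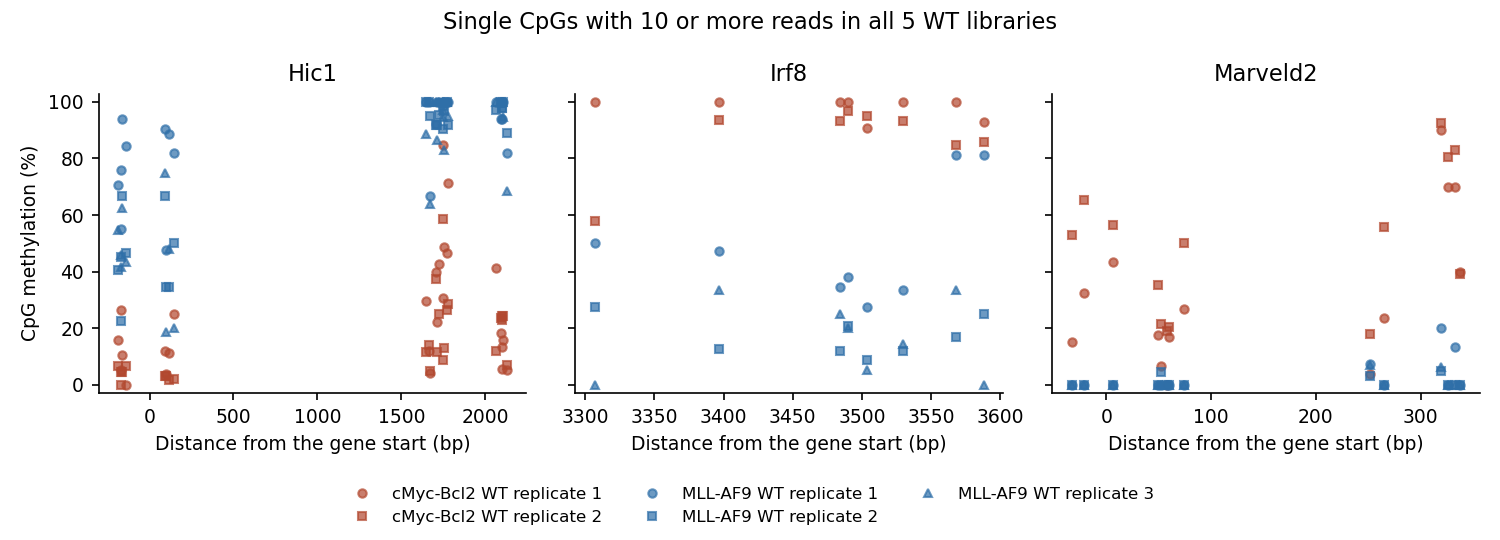
Methylation in percent of single CpGs (vertical axis) by distance in bp from the placed gene start (horizontal axis), for Hic1, Irf8 and Marveld2; each symbol is 1 WT library. At Hic1 the MLL-AF9 libraries lie above the cMyc-Bcl2 libraries at 8 of 9 CpGs near the start and at all CpGs farther inside the gene. At Irf8 the MLL-AF9 libraries lie below at all 8, and at Marveld2 most MLL-AF9 CpGs are at or near 0%.

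Most promoters were low in both models. Of 5565 placed promoters measured over 3 or more CpGs, 5 were set apart with cMyc-Bcl2 as the higher model (0.0898%) and 2 with MLL-AF9 (0.0359%). Of the 5565, 5371 were under 20% in both models. The 2 higher in MLL-AF9 were those of Hic1 and Arhgef18. The Arhgef18 promoter, measured at chr8:3392974-3393058, read 43.6 and 21.2% in cMyc-Bcl2 against 89.9, 93.0 and 75.5% in MLL-AF9. This level rests on 6 CpGs, the 5 marked in the sequence above and 1 at its edge, which overlapped between the models. The mean was 32.4% ± 15.8 (SD, n = 2) and 86.1% ± 9.34 (SD, n = 3). The next promoters in this direction, of Gm46430 and Gm32267, had gaps of 24.9 and 20.6 points. Gm34820 and Gm41301, which were measured over the same CpGs, followed with 11.8 points, and the twelfth had 7.31.

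The 5 higher in cMyc-Bcl2 were 2 overlapping promoters of Marveld2 and those of Chrnb4, Tacc2 and 3300002P13Rik. Marveld2 encodes a protein of tight junctions, and its promoter read 27.6 and 54.0% in cMyc-Bcl2 against 0, 0 and 0% in MLL-AF9, over the 4 CpGs marked in the sequence above. The wider window of 14 CpGs at chr13:101386561-101386933 read 27.4 and 50% against 2.14, 0.833 and 1.01%. Chrnb4, a subunit of nicotinic receptors, read 47.5 and 29.3% against 3.23, 1.49 and 3.39% at chr9:54896321-54896352. Tacc2, of a family that binds centrosomes and microtubules, read 82.5 and 67.2% against 41.9, 8.39 and 5.60%. The promoter of 3300002P13Rik read 49.1 and 38.9% against 4.10, 11.9 and 5.96% over 9 CpGs. The next in this direction, of Gm1070, Abca14 and Mark1, had gaps of 21.9, 17.5 and 14.8 points.

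The gene lists hold too few measured promoters to be read against shares of 0.0898 and 0.0359% over all promoters. Hic1, in the list of tumour suppressors often methylated in cancer, was the 1 promoter set apart in any list. That list had 18 promoters measured, 16 of them under 20% in both models, with a median difference of 0.304 points, and of those with the most reads Rassf1 and Wif1 were at 1.23% or less in every WT library and Gata5 and Dapk1 at 11.1% or less. Developmental transcription factors had 33 promoters measured, 31 of them under 20% in both models and none set apart. Their median was 6.07% in cMyc-Bcl2 and 5.66% in MLL-AF9, above the 1.00 and 1.04% of all promoters. Msx1, Pax6, Foxc1 and Nkx3-2 had the most reads, and of these Msx1 stood at 18.8 and 5.42% in cMyc-Bcl2 against 3.06, 6.41 and 2.35% in MLL-AF9.

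Lineage lists were thinly measured. None of the 4 T cell promoters (Gata3, Lef1, Runx3 and Tcf7), the 2 myeloid promoters (Cebpb and Egr2) or the 1 B cell promoter (Ikzf1) was set apart, as the share over all promoters would give for lists of this size. Lef1, a T cell transcription factor, stood at 13.9 and 16.3% in cMyc-Bcl2 against 3.88, 7.33 and 6.52% in MLL-AF9. Ikzf1, a lymphoid transcription factor, was at 2.59% or less in every WT library. None of the 6 promoters of the stem cell and MLL-fusion list was set apart. Of these Runx3, Flt3 and Myb were at 2.99% or less in every WT library. No erythroid promoter was measured.

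Homeobox and imprinted promoters were at intermediate levels in some libraries without separating the models by 25 points. Of the 3 homeobox promoters, Hoxa13 was at 0.954% or less in every WT library, and Hoxd11 read 8.85 and 4.89% in cMyc-Bcl2 against 25.9, 36.4 and 11.1% in MLL-AF9. Of the 5 imprinted promoters, Igf2r overlapped between the models, at 22.3 to 50.3%. Plagl1 read 32.5 and 36.7% in cMyc-Bcl2 against 32.1, 24.2 and 28.0% in MLL-AF9, a gap of 0.405 points. The 4 housekeeping promoters (Polr2a, Ppia, Rps18 and Tubb5) were at 2.09% or less in every WT library. Kmt2a, the mouse gene of MLL and the 1 promoter measured of the introduced oncogenes, was at 0.709% or less.

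Windows within 5 kb of a placed start of a list gene were read against those near any placed start. Of all windows, 3 and 4 of 8561 within 1000 bp of a placed start and 16 and 8 of 1410 beyond that and within 5 kb were set apart with cMyc-Bcl2 and with MLL-AF9 as the higher model. Of 205 windows near developmental transcription factors, 1 was set apart, at -4056 bp from the start of Nkx6-1. It read 63.6 and 53.9% in cMyc-Bcl2 against 2.70, 21.4 and 19.4% in MLL-AF9, and 2 of its 4 CpGs were apart. In the knockin libraries the models overlapped there. Of 33 near genes of the stem cell and MLL-fusion list 1 was set apart, at Gata2, and of 9 near myeloid genes 1, at Irf8. Of 40 near tumour suppressors 2 were, both at Hic1, and of 18 near homeobox genes none. Counts this small say nothing particular about a list.

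The knockin libraries, whose window levels took no part in choosing the windows, mostly showed the same direction. In the 146 windows higher in cMyc-Bcl2, the mean of the cMyc-Bcl2 knockin libraries exceeded that of the MLL-AF9 knockin libraries in 139, or 95.2%, against 40.1% of all 27021 windows with knockin reads. The libraries did not overlap in 115, or 78.8%, against 15.8% of all windows. In 47 windows, 32.2%, they were again at least 25 points apart, against 0.825% of all windows. All windows had medians of 3.90 to 6.72% in the WT libraries, so these shares include many windows low in both models.

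Windows higher in MLL-AF9 behaved likewise. Of 69, 61 had the same direction in the knockin libraries, or 88.4% against 59.5% of all windows. No overlap was seen in 47, or 68.1% against 24.5% of all windows. In 32, 46.4%, the knockin libraries were again at least 25 points apart, against 0.540% of all windows. A separate quasi-binomial fit of the knockin libraries called 279 windows higher in cMyc-Bcl2 (1.11% of 25035) and 121 higher in MLL-AF9 (0.483%). It called 25 of the 125 windows from the first group that it could test, or 20%, and 22 of the 62 from the second, or 35.5%.

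Calls of the knockin fit included several of the windows described above, while others were tested and not called. The windows at Drap1, upstream of Cbl and at chr7:133893205-133893366 each had an adjusted p of 0.0158 there (quasi-binomial fit). The Drap1 window read 34.1 and 34.1% in cMyc-Bcl2 knockin against 95.9, 96.5 and 94.2% in MLL-AF9 knockin libraries. The windows in both parts of the Arhgef18 and Trak1 pairs were called too, with adjusted p-values of 0.0165 to 0.0346 in that fit. The windows at Git2 (adjusted p = 0.0254) and Aars2 (adjusted p = 0.0485) were called in the other direction by the same fit. Not called were the named windows at Ubtf, Pde2a, chr7:88021066-88021185 and chr16:91760909-91760988, with adjusted p-values of 0.0625 to 0.125 (quasi-binomial fit). Those at Ttc28, chr9:123995109-123995187, chr9:118598396-118598599 and chr10:61749294-61749390 were not called either, at 0.150 to 0.946 in that fit. The named windows at chr8:117097652-117097727 and chr6:3151487-3151555 could not be tested there. The body of Hic1 was not called in the knockin libraries (adjusted p = 0.0960, quasi-binomial fit), where it read 65.0 and 57.6% against 97.1, 91.0 and 81.4%. The window at the nearest placed start of Hic1, not called either, read 18.4 and 12.1% there against 39.6, 28.0 and 67.1%.

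The difference between the models was smaller in knockin than in WT libraries in windows higher in cMyc-Bcl2. Its median was 48.4 points in WT and 28.5 points in knockin libraries. The median level of the MLL-AF9 libraries was 20, 19.1 and 17.2% in WT and 49.3, 53.0 and 46.2% in knockin, while the cMyc-Bcl2 libraries stood at 78.9 and 77.0% and at 87.6 and 83.3%. Every MLL-AF9 knockin library lay above every MLL-AF9 WT library in 111 of these windows, or 76.0%, against 18.1% of all windows. Because the windows were picked for low values in MLL-AF9 WT, the choice itself can give such a difference, and its part was not tested.

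In windows higher in MLL-AF9 the knockin medians were also further from WT in the low model, here cMyc-Bcl2, chosen for low WT values. The medians of cMyc-Bcl2 were 27.7 and 27.1% in WT and 47.4 and 38.6% in knockin libraries. Those of MLL-AF9 were 83.1, 84.7 and 80% in WT and 89.5, 87.7 and 81.4% in knockin libraries. The median difference between the models was 46.7 points in WT and 34.7 points in knockin libraries.

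**Figure D4:**
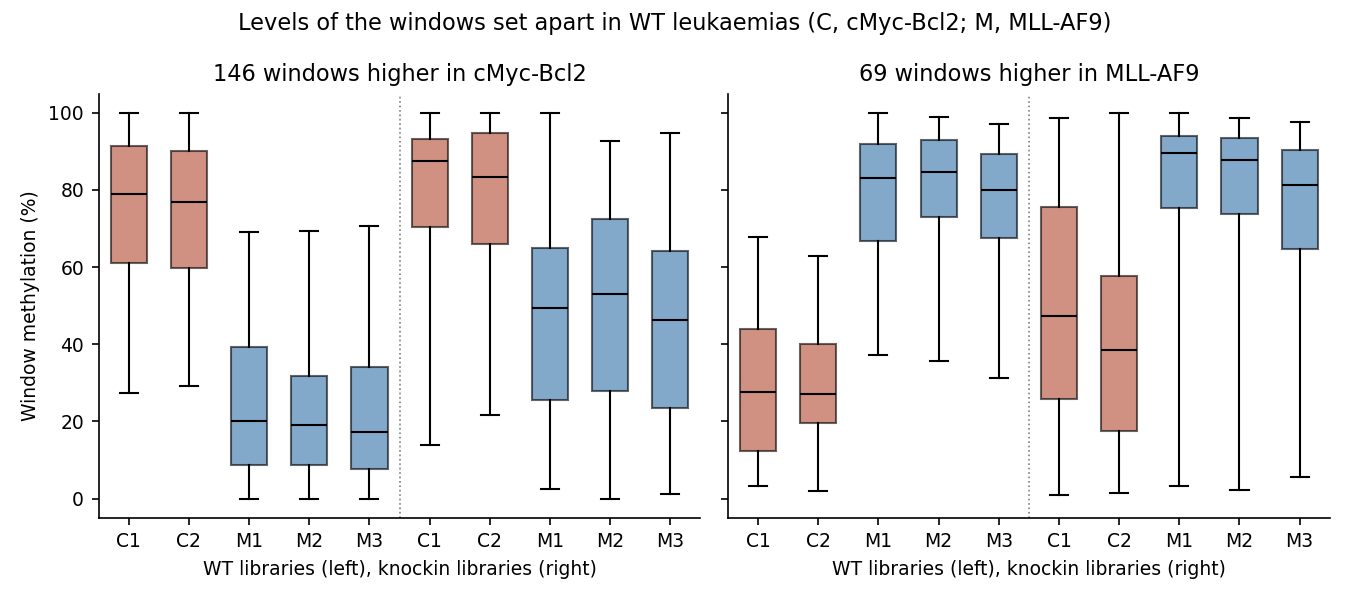
Methylation in percent (vertical axis) of the windows set apart in WT, in each WT and knockin library (horizontal axis; C is cMyc-Bcl2 and M is MLL-AF9, numbered by replicate); boxes span the quartiles, lines in them are medians and whiskers reach the lowest and highest window. In the 146 windows higher in cMyc-Bcl2 the MLL-AF9 medians are 20, 19.1 and 17.2% in WT and 49.3, 53.0 and 46.2% in knockin libraries.

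Single windows departed from this order. On chromosome 6 at chr6:67485401-67485472 a window of 10 CpGs with 57 listed CpGs per kb read 45.0, 59.2 and 49.5% in MLL-AF9 WT and 4.11 and 2.11% in cMyc-Bcl2 WT, but 3.17, 2.14 and 5.59% in MLL-AF9 knockin libraries. The choice of this window followed from its values. The dense window on chromosome 1 near Gm32267 read 16.9 and 12.5% against 44.6, 98.8 and 66.7% in WT libraries. In the knockin libraries it overlapped, at 96.6 and 39.3% against 97.8, 62.7 and 60.2%.

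**Figure D5:**
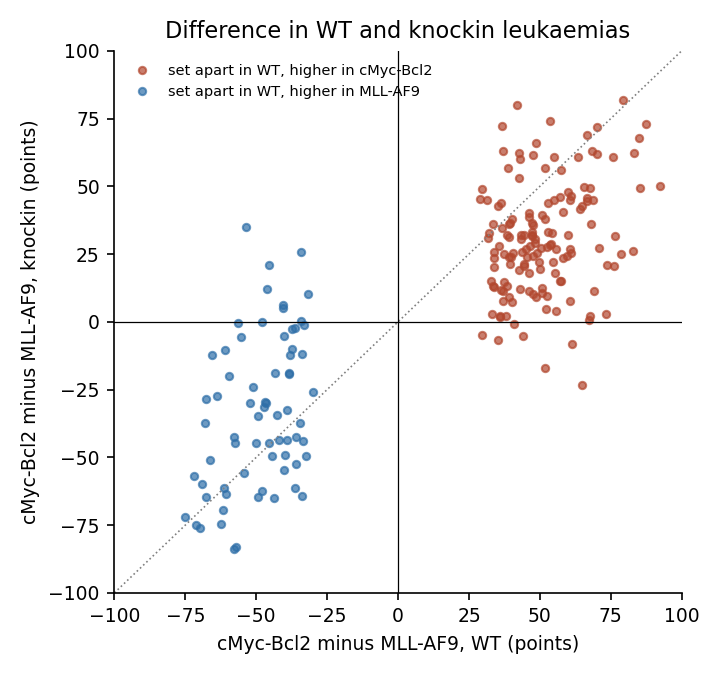
Difference between the models in percentage points, cMyc-Bcl2 minus MLL-AF9, in WT libraries (horizontal axis) and in knockin libraries (vertical axis); each point is 1 window set apart in WT and the dotted line marks equal differences. Most points lie in the quadrants of equal sign, 139 of 146 and 61 of 69, and the median difference of the first group is 48.4 points in WT and 28.5 in knockin libraries.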

How the data were processed

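The deposited files give, per position, the counts of methylated and unmethylated reads on mm9. Per the submitters' processing notes the authors' tools included Bismark 0.7.4 and methylKit, with Trim Galore 0.2.2 and CASAVA; no settings are stated. The deposited tables list the strands of a CpG on separate lines, 1 bp apart (421825 to 889699 such pairs per file), and they were joined here. At CpGs whose partner lies 48 or 49 bp away (MLL-AF9) or 55 or 56 bp away (cMyc-Bcl2), where reads end on a cut site, the strands differed by over 50 points in 4.31 to 6.35% of cases, against at most 1.19% at other distances. These 476651 positions, 19.6% of reads, were left out of all libraries, a choice made after the data were examined.

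A window was set apart where all libraries of 1 model lay 25 points or more beyond all of the other. Windows were also fitted with a quasi-binomial model (methylated and unmethylated reads, dispersion moderated by limma 3.58.1 in R 4.3.3 and at least 1, F-test, Benjamini-Hochberg over all windows; a call needs an adjusted p under 0.05 and 10 points). The fit was tested on simulated data. Named windows were the 8 largest gaps each way with 5 or more CpGs and 50 or more reads per library, named promoters the 12 largest gaps each way. RefSeq promoters (GRCm38.p6) were placed on mm9 by their CpG spacing and gene order: 8603 of 17846 with 6 or more CpGs on autosomes, while 43 reversed sequences were placed by the same rule. Alternatives covered coverage, window size, weighting, dispersion, thresholds and left-out libraries. Windows, lists and tests were chosen with earlier results of these data known. Python 3.11.15, numpy 2.4.6 and pandas 2.3.3 were used.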

Additional observations from a re-analysis of the deposited data

Results flagged for a closer look

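Windows set apart in WT libraries with no overlap in the opposite direction in the knockin libraries were looked for, and 2 were found. The window of 6 CpGs at chr2:69509044-69509121 read 72.2 and 87.3% in cMyc-Bcl2 WT against 24.4, 9.40 and 10.5% in MLL-AF9 WT, and 71.7 and 42.7% against 72.0, 82.9 and 86.4% in the knockin libraries. There the nearest libraries of the models were -0.237 points apart, in the direction of MLL-AF9. Chromosome 2 is one of the chromosomes of unequal read depth. The window of 3 CpGs at chr8:122940388-122940447 read 37.7 and 38.1% in cMyc-Bcl2 WT against 85.0, 73.0 and 94.7% in MLL-AF9 WT, and 92.6 and 91.2% against 85.2, 90.7 and 64.0% in the knockin libraries, where the nearest libraries were 0.468 points apart in the direction of cMyc-Bcl2. The difference between WT and knockin was not tested for either window, and both margins in the knockin libraries are under 1 point. The WT groups hold 2 and 3 libraries, too few for a search for single outlying libraries.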

How the results depend on the processing

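Windows higher in cMyc-Bcl2 outnumbered those higher in MLL-AF9 under all 22 alternatives, with 58.1 to 75.0% of the windows set apart. The numbers themselves moved. Set apart higher in cMyc-Bcl2 and in MLL-AF9 were 18 and 6 windows with 20 reads per CpG, 278 and 146 with 5 reads, 42 and 28 with 5 or more CpGs, 1349 and 885 single CpGs, 545 and 278 with a gap of 10 points, 47 and 19 with a gap of 40, 4263 and 2664 with no minimum gap, and 78 and 40 with each CpG left out in turn. With 1 library left out they were 208 (without MLL-AF9 replicate 2) to 347 (without cMyc-Bcl2 replicate 1) and 95 (without MLL-AF9 replicate 2) to 238 (without cMyc-Bcl2 replicate 2). With read-end positions kept they were 186 and 84, and with strands as listed 137 and 62; these settings and the one leaving out CpGs were added after the data were seen. The fit called 0 and 0 windows with 20 reads, with smaller windows, on single CpGs (8427 of 267070 had an unadjusted p under 0.05), with a dispersion trend (2787 of 27043) and without any 1 library (0 and 0, with 2363 to 3982 at an unadjusted p under 0.05). It called 36 and 22 with 5 reads, 7 and 6 with 5 or more CpGs, 27 and 7 by limma on M-values, 102 and 49 with all 10 libraries, 97 and 45 at an adjusted p under 0.1, 14 and 10 with read-end positions kept, and 27 and 13 with strands as listed. Higher in MLL-AF9, it called 4 with a coverage limit and 4 without chromosomes 2 and 15. With 20 reads 525 of 8592 windows and with smaller windows 3346 of 30374 had an unadjusted p under 0.05. The cause of these changes was not tested. A lone cMyc-Bcl2 library was assumed to vary like the MLL-AF9 libraries.

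Mean methylation kept its direction in all 11 alternatives (0.0653 to 2.98 points). Without 1 library it ranged from -0.213 to 0.723 points at 20 to 59 listed CpGs and from -0.344 to 0.582 at 60 or more, where it was -0.347 with common weights and -1.04 with density from covered CpGs. Of the windows higher in cMyc-Bcl2, 66.7% with 20 reads did not overlap in the knockin libraries. Without 1 library the share was 62.8 to 87.0% for those and 51.6 to 81.2% for windows higher in MLL-AF9. Promoters set apart numbered 3 and 1 with 10 matched CpGs, 3 higher in cMyc-Bcl2 over 1-kb windows, and 6 to 16 and 2 to 7 without 1 library. No paired analysis was possible because replicate numbers follow accession order and tie no libraries together. Of the windows set apart, 37.0% of those higher in cMyc-Bcl2 and 27.5% of those higher in MLL-AF9 had under 50 reads in some WT library, against 18.7% of all windows; the part of low depth in these counts was not tested.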
